A study of Homo sapiens with 6 samples.

Results

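ATF4 and 9 further regulators of the cellular stress response, ATF3, ATF5, DDIT3, DDIT4, TRIB3, CHAC1, SESN2, CEBPB and NUPR1, were examined in LM3 cells with stable ZNF706 knockdown. LM3 is an established human hepatocellular carcinoma (HCC) line. The genes were chosen by their symbols, and each matched 1 row, so that 10 of the 33007 genes of the deposited table were described. Earlier results of the same contrast were known when the symbols were chosen, and the values of these 10 genes are therefore given as a description, without p-values.

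RNA-seq was performed on 3 vector control samples and 3 ZNF706 knockdown samples, both labelled wild type in genotype. The knockdown cells were made with a short hairpin RNA against ZNF706 in a lentiviral pLKO.1 vector and puromycin selection. Which hairpin was used, and whether the cells came from a single clone, is not given in the sources used here. No stress-inducing agent appears in the labels. Control samples 1 to 3 held 62684076, 64713764 and 63054445 counts and knockdown samples 1 to 3 held 68548419, 65861994 and 69057423, so each knockdown sample was deeper than each control sample. Nothing states that the 3 samples of a group were separate cultures, so the p-values given for other genes measure the spread between these samples, which may be technical.

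The integrated stress response is a signalling network in which kinases that sense unfolded proteins, amino acid shortage, viral RNA or haem shortage phosphorylate the translation factor eIF2alpha. General protein synthesis then slows, while the ATF4 message is translated more efficiently, and ATF4, a basic leucine zipper (bZIP) transcription factor, raises genes for amino acid synthesis and transport, glutathione turnover and, when stress lasts, cell death. Because much of this control acts on translation and protein stability, an RNA level of ATF4 or ATF5 is not a measure of the protein. In liver tumour cells the pathway is best known for amino acid supply and redox balance.

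ZNF706 (ENSG00000120963), the target of the knockdown, had counts of 3211, 3504 and 3357 in control and 2350, 2068 and 2298 after knockdown. The groups did not overlap. As CPM, the counts scaled to a common library size with TMM factors, the level was 53.9 ± 1.76 in control and 32.4 ± 1.39 in knockdown (SD, n = 3 each, as for all values below), a log2 fold change of -0.73 (SE 0.05, edgeR quasi-likelihood test, adjusted p = 3.7e-05). Transcripts of ZNF706 were thus lower but still present. In bulk RNA, fewer cells with a transcript and less of it per cell cannot be told apart.

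The label of the cell line was set against hepatocyte genes. The epithelial keratins KRT8 and KRT18 were abundant, at 193 ± 3.32 and 271 ± 10.8 FPKM (reads scaled to gene length and library size) in control, whereas the secreted liver proteins were sparse and uneven between libraries. ALB, which encodes albumin, had counts of 189, 899 and 882 in control and 587, 635 and 138 after knockdown. The summed CPM of ALB, AFP, TF, FGB and GPC3, a subset picked after its values were seen, was 5.35 in control sample 1 and 2.96 in knockdown sample 3, and between 17.8 and 29.8 in the other 4. In this subset control sample 1 and knockdown sample 3 stood apart from their groups in the same direction. Over all tested genes their deviations from the group means were not alike (correlation -0.05). The fold changes and calls of the regulators and lists below were also computed without both of these samples.

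Across the whole table, edgeR tested 18390 genes and called 4192 at an adjusted p below 0.05, which is 22.8% of those tested. Higher levels after ZNF706 knockdown were called for 1906 genes (10.4%) and lower levels for 2286 (12.4%). The criteria of the study (unadjusted p below 0.05, log2 fold change of 0.3 or more in size) took in 2848 genes (15.5%). The split between directions depended on the scaling, with 45.5% of the called genes higher after TMM scaling and 64.4% higher with library size alone.

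All 10 regulators passed the filter on low counts. DDIT4 was called higher, against 10.4% of all genes. ATF4, ATF5, CHAC1, SESN2 and NUPR1 were called lower, 5 of 10 against 12.4%. ATF3, DDIT3, TRIB3 and CEBPB were not called. The symbols were chosen with this contrast known, so a call of any of them is a description only. Nothing is read from these shares. The log2 fold changes ran from -0.70 for CHAC1 to 0.52 for DDIT4 with a median of -0.28, beside a median of 0.01 over all tested genes. The criteria of the study were met by DDIT4 (higher) and by ATF4, ATF5, CHAC1 and NUPR1 (lower). SESN2, at -0.27, lay just under the fold that those criteria ask for.

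**Figure D1:**
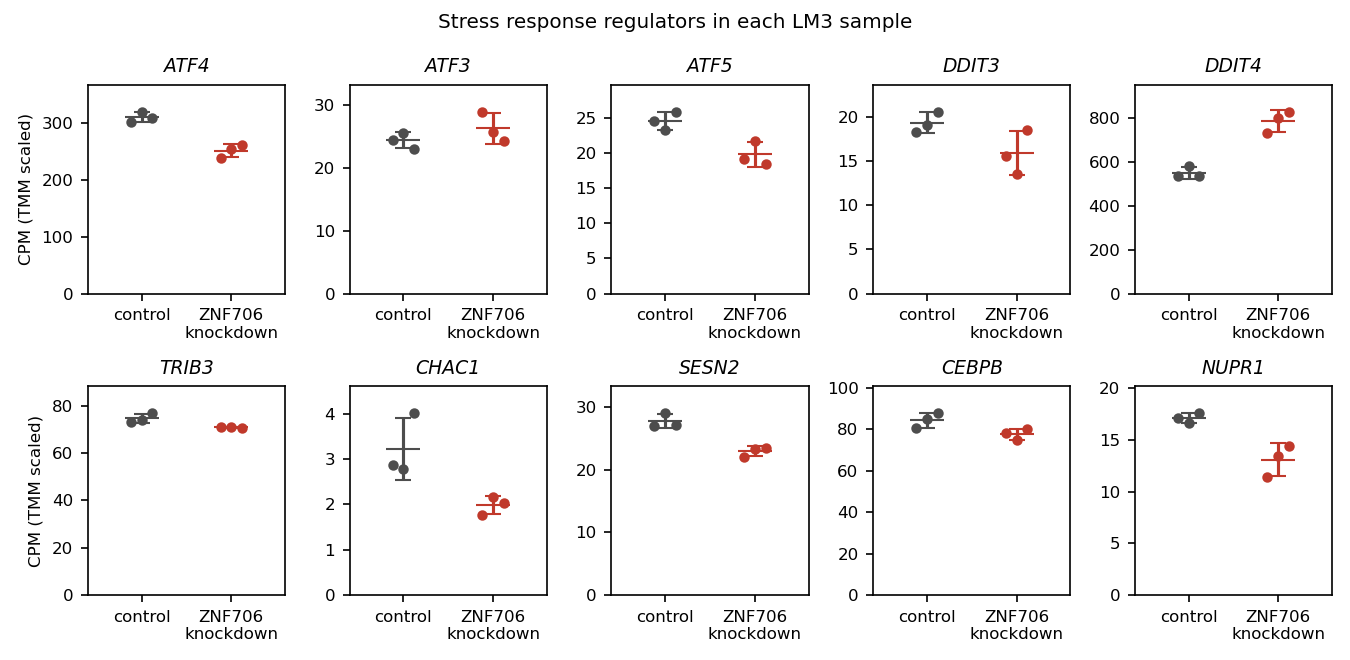
Level of each regulator in CPM after TMM scaling (vertical axes, each gene on its own scale starting at 0) in the 3 control and 3 ZNF706 knockdown samples, with each point a sample and the bar and whisker the mean and SD. The control and knockdown points overlap only for ATF3 and DDIT3, and DDIT4 is the 1 gene whose knockdown points all lie above the control points.

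The sites to which ATF4 binds with C/EBP partners share the letters TGATGNAA, known as the amino acid response element. These letters were searched on both strands in the 250 bases before each RefSeq start (GRCh38.p14), where 3.14% of 35116 windows held them. Of the 10 regulators, 9 matched the promoter table, with 17 windows, and 2 windows held a match, those of CHAC1 and of the upstream start of ATF3. They are shown with 3 of the 8 other ATF4 targets that also held one (of 42 targets with 63 windows), to let the sites be compared: ASNS (asparagine synthetase), HERPUD1 (endoplasmic reticulum protein degradation) and AARS1 (alanyl-tRNA synthetase). Each is printed on the strand of its gene with the match in capitals, so that TTGCATCA is the same element read from the other strand.
CHAC1, chr15:40953252-40953279 (plus): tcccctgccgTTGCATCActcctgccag
ATF3, chr1:212565206-212565233 (plus): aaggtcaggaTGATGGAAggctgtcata
ASNS, chr7:97872459-97872486 (minus): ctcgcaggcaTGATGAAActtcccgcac
HERPUD1, chr16:56931956-56931983 (plus): acgcggcgggTTGCATCAgcccgtgccc
AARS1, chr16:70289676-70289703 (minus): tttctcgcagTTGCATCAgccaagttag
A match is a description of the letters in the window and not a binding site. The 5 genes shown did not share a direction after ZNF706 knockdown, since CHAC1, ASNS and HERPUD1 were called lower, AARS1 higher and ATF3 not called. Among the 8 targets with a match, which were found by the search and not by the rule for named genes, 1 rose, 4 fell (ASNS, HERPUD1, SLC1A5 and GARS1) and 3 were not called, beside 10.4% higher and 12.4% lower over all tested genes. The cyclic AMP response element TGACGTCA was in 1.65% of all windows, in none of the regulators and in 1 target, PPP1R15A.

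ATF4 (ENSG00000128272, chr22:39519672-39522683 of GRCh38, plus strand), the central transcription factor of the group, had counts of 18646, 20278 and 18864 in control and 16665, 16986 and 18252 in knockdown. The CPM were 301, 319 and 307 in control and 238, 253 and 261 in knockdown, so the highest knockdown sample lay below the lowest control sample. The mean was 309 ± 9.02 in control and 251 ± 11.8 in knockdown, a log2 fold change of -0.30 (SE 0.04), or 19.0% less. ATF4 kept its call under each of the 16 alternative settings, which leave out the criteria of the study given above. The values lay between -0.35 and -0.25. All settings refit the same samples, so they show how a value depends on the processing and are no further evidence for it. The table has 4 pseudogene rows of ATF4, of which the largest, ATF4P3, was at 1.02 ± 0.03 CPM in control. How reads that match both were counted is not given in the sources used here.

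The other transcription factors of the group are bZIP proteins too. ATF5 (ENSG00000169136, chr19:49928702-49933935, plus strand), which like ATF4 is controlled at translation, had CPM of 24.7, 23.2 and 25.9 in control and 19.2, 21.8 and 18.5 in knockdown. The groups did not overlap, and the log2 fold change was -0.31 (SE 0.08). This call was lost in 7 of 16 settings, the most of any of the 10, among them library size alone (-0.26) and the fit without control sample 1 and knockdown sample 3 (-0.26). ATF5 shares 1062 bases with NUP62, a nuclear pore gene on the opposite strand, whose own log2 fold change was -0.13 (edgeR adjusted p = 0.0496). Whether strand was used in counting is not given in the sources used here, and without strand the reads of such a pair cannot be told apart.

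DDIT3 (ENSG00000175197, chr12:57516588-57521737, minus strand) encodes CHOP, a C/EBP-family factor linked to cell death under lasting endoplasmic reticulum stress. Its CPM were 18.2, 19.1 and 20.5 in control and 15.6, 13.5 and 18.5 in knockdown. Knockdown sample 3 lay inside the control range and the other 2 below it. The log2 fold change of -0.28 (SE 0.11) was about as large as that of ATF4 but was not called, and it rested on single knockdown samples, being -0.41 and called without knockdown sample 3 and -0.18 without knockdown sample 2. DDIT3 overlaps MARS1 by 982 bases and MBD6 by 1028 bases on the opposite strand. MBD6, a methyl-CpG-binding domain gene, fell from 38.2 to 31.4 CPM (log2 fold change -0.28, edgeR adjusted p = 0.0051), while MARS1, a methionyl-tRNA synthetase, was at 132 CPM in control and 137 in knockdown (adjusted p = 0.378).

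CEBPB (ENSG00000172216, chr20:50190830-50192668, plus strand), a C/EBP-family factor of the hepatic acute-phase response and a dimer partner of ATF4, had CPM of 80.3, 84.7 and 87.6 in control and 78.0, 74.6 and 79.8 in knockdown. The groups did not overlap, but by a narrow margin, and the log2 fold change of -0.12 (SE 0.04) was not called. CEBPB was called after removal of the GC trend of each library (-0.22) and without control sample 1, alone (-0.16) or together with knockdown sample 3 (-0.17), but its value was smaller with library size alone (-0.07) and in both limma fits on FPKM (-0.07). ATF3 (ENSG00000162772, chr1:212565334-212620772, plus strand), an early stress-induced factor that often represses its targets and whose upstream start also has the element, had CPM of 24.5, 25.6 and 23.1 in control and 29, 25.7 and 24.2 in knockdown. The groups overlapped, with knockdown sample 1 the highest of all 6, and the log2 fold change of 0.11 (SE 0.08) was called in none of the 16 alternatives.

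The remaining 5 genes encode effectors rather than bZIP factors. DDIT4 (ENSG00000168209, chr10:72273924-72276036, plus strand) encodes REDD1, which restrains the growth kinase mTORC1 through the TSC1 and TSC2 complex and is induced by ATF4, by hypoxia and by glucocorticoids. Its counts were 33057, 36848 and 32786 in control and 51186, 53821 and 58005 in knockdown. In CPM these were 534, 580 and 534 against 730, 802 and 829, with every knockdown sample above every control sample.

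The mean level of DDIT4 went from 549 ± 26.3 to 787 ± 51.3 CPM, a log2 fold change of 0.52 (SE 0.05) or 1.43-fold. It was called higher in each of the 16 alternatives, between 0.46 and 0.57. Its antisense gene DDIT4-AS1 had at most 13 counts in a sample.

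**Figure D2:**
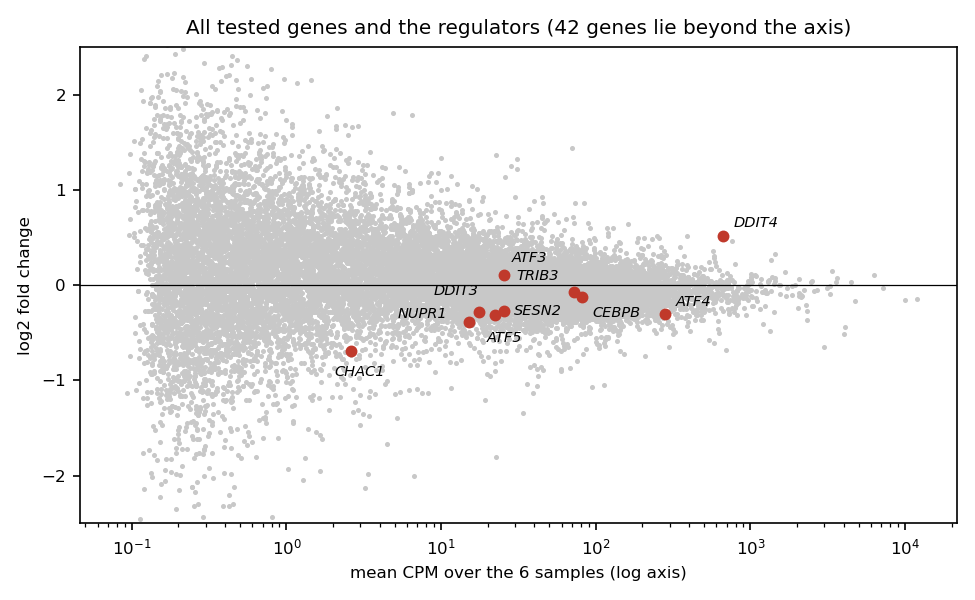
Mean CPM over the 6 samples (horizontal, log axis) against log2 fold change, knockdown minus control (vertical), for all tested genes in grey and the 10 regulators in red. DDIT4, at 0.52, lies at the upper edge of the grey cloud for genes of its level, whereas CHAC1 (-0.70) and ATF4 (-0.30) lie towards the lower edge at theirs.

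CHAC1 (ENSG00000128965, chr15:40952962-40956512, plus strand) encodes a gamma-glutamyl cyclotransferase that degrades glutathione, and holds the element shown above. It was the scarcest of the 10, with counts of 178, 176 and 246 in control and 124, 145 and 142 in knockdown. In CPM these were 2.88, 2.77 and 4.01 against 1.77, 2.16 and 2.03. The groups did not overlap, and control sample 3 was well above the other controls. The log2 fold change of -0.70 (SE 0.20) had the widest error of the group, and its call was lost in 6 settings, without control sample 3 (-0.51) among them. In the limma fit on log2(FPKM + 1), where the pseudocount shrinks the change of low genes, it was -0.33.

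NUPR1 (ENSG00000176046, chr16:28532708-28538974, minus strand), a small stress-induced nuclear protein, had CPM of 17.1, 16.7 and 17.6 in control and 11.4, 13.5 and 14.5 in knockdown. The control samples were tightly grouped and the knockdown samples spread below them. The log2 fold change was -0.38 (SE 0.10). The call was lost in 5 settings, among which the smallest change was -0.29, without knockdown sample 1. In the limma fit on log2(FPKM + 1) NUPR1 was called, with a smaller change of -0.24.

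SESN2 (ENSG00000130766, chr1:28259518-28282491, plus strand) encodes Sestrin 2, a leucine sensor that holds back mTORC1 through the GATOR2 complex. Its CPM were 27.0, 29 and 27.2 in control and 22.1, 23.3 and 23.5 in knockdown, without overlap. The log2 fold change was -0.27 (SE 0.07), and it lost its call without control sample 2 (-0.24) or without knockdown sample 1 (-0.24). SESN2 and DDIT4, both brakes on mTORC1, thus had values of opposite sign.

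TRIB3 (ENSG00000101255, chr20:362835-397559, plus strand) encodes a pseudokinase that binds ATF4 and the kinase AKT and dampens both. Its CPM were 72.9, 74.0 and 76.7 in control and 71.0, 70.9 and 70.4 in knockdown. Every knockdown sample was below every control sample, yet the log2 fold change was only -0.08 (SE 0.04) and was not called. It was called after removal of the GC trend (-0.14), and it was -0.02 with library size alone and -0.03 in both limma fits on FPKM.

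Counted by position alone in TMM-scaled CPM, 1 regulator was higher in every knockdown than in every control sample, 7 were lower and 2 overlapped. Among those lower, the separation of CEBPB was not seen in FPKM. Over all tested genes, 19.7% were higher in every knockdown sample and 19.7% lower. Without control sample 1 and knockdown sample 3, DDIT4 was called higher, and ATF4, DDIT3, CEBPB, SESN2 and NUPR1 lower. ATF5 and CHAC1 were no longer called in that comparison of 2 against 2 samples.

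**Figure D3:**
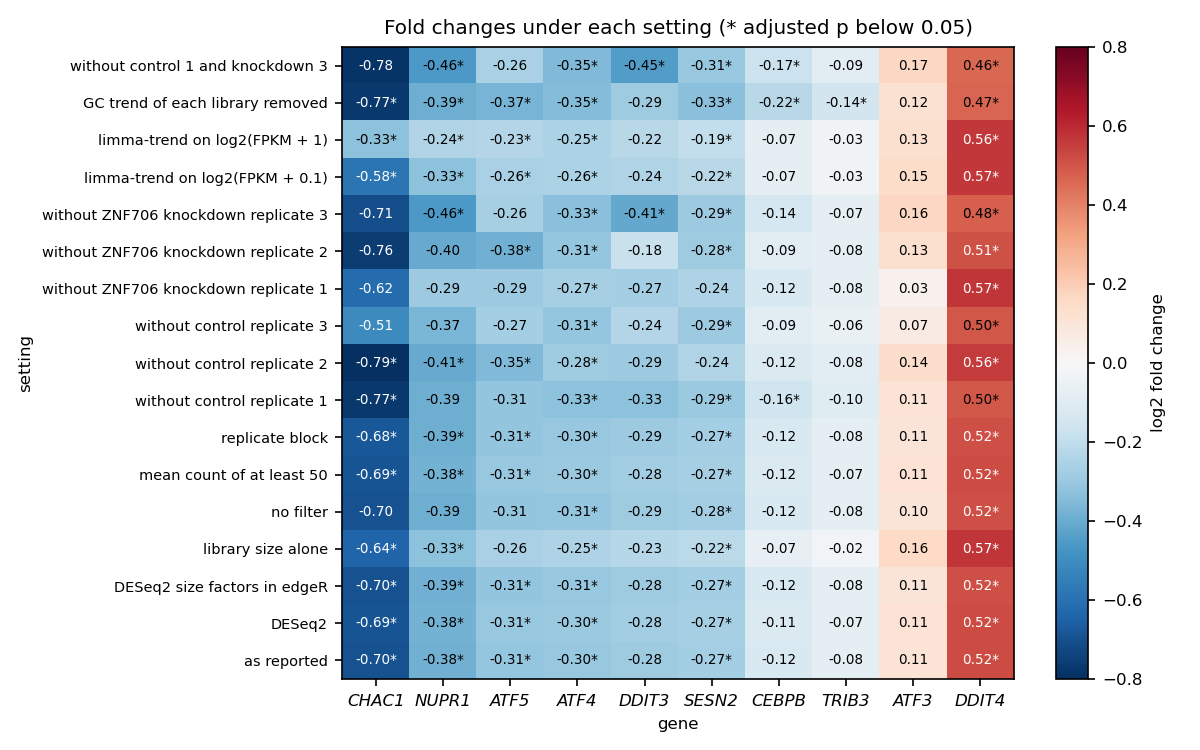
Log2 fold change, knockdown minus control, of each regulator (columns) as reported and under the 16 alternative settings (rows), with an asterisk where the gene was called. No value changes sign, ATF4 and DDIT4 carry an asterisk in every row, and ATF3 in none.

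The levels of the genes were compared in FPKM, the deposited values scaled to gene length and library size. DDIT4 was the highest at 231 ± 11.3 FPKM in control, followed by ATF4 (91.6 ± 2.54), CEBPB (39.5 ± 1.37), TRIB3 (21.2 ± 0.38), DDIT3 (12.7 ± 0.67), ATF5 (7.32 ± 0.37), SESN2 (6.91 ± 0.28), ATF3 (5.21 ± 0.30), NUPR1 (2.68 ± 0.06) and CHAC1 (1.34 ± 0.28). The order of the means was the same in knockdown, from 342 ± 22 for DDIT4 and 76.8 ± 3.55 for ATF4 to 0.85 ± 0.09 for CHAC1. The samples of ATF5 and SESN2 overlapped in both groups, and those of SESN2 and ATF3 in knockdown. These neighbours therefore had no order beyond their spread. The order of the other genes also depends on the gene lengths used for FPKM, and other lengths could change it.

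Of all counts on the 10 genes, DDIT4 took 48.4%, 49.4% and 47.5% in control and 60.0%, 61.7% and 61.8% after knockdown. The share of ATF4 went from 27.3%, 27.2% and 27.3% to 19.6%, 19.5% and 19.4%. Within a sample the ratio of DDIT4 to ATF4 counts was 1.77, 1.82 and 1.74 in control and 3.07, 3.17 and 3.18 in knockdown. This ratio does not depend on how the libraries are scaled to each other. The summed CPM of the 10 genes was higher in knockdown (1215, 1301 and 1341) than in control (1103, 1174 and 1124), but without DDIT4 it was lower (486, 499 and 512 against 569, 594 and 590).

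**Figure D4:**
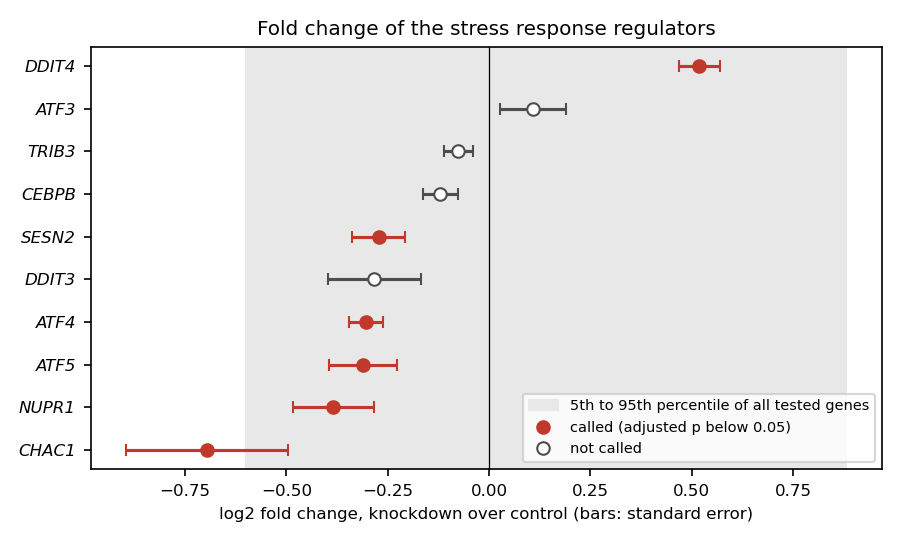
Log2 fold change, knockdown minus control (horizontal), of each regulator with its SE as whiskers. Filled points were called, and the grey band spans the 5th to 95th percentile of all tested genes (-0.60 to 0.88), outside which only CHAC1 (-0.70) lies.

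The genes whose values over the 6 samples lay closest to those of ATF4 were found among 14115 tested genes by the root mean square difference of log2 CPM centred on the control mean. They were ATF2 (0.02), a bZIP relative of ATF4, and DBF4, CREG1, CLDND1 and ABHD17C (0.02 to 0.03). DBF4 activates a replication kinase and CLDND1 is a claudin-like membrane protein. Their log2 fold changes lay between -0.33 and -0.29, beside -0.30 for ATF4. This likeness follows from the search and is not read as a link to ATF4.

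Further genes of the pathway were taken from lists of known members, written with earlier results of these data known. They are described by counts and medians beside 10.4% higher, 12.4% lower and a median log2 fold change of 0.01 over all tested genes. These shares are a description, and no enrichment is read from them. Some genes stand in more than 1 list. Upstream of ATF4, the list of eIF2alpha kinases, phosphatase subunits and their regulators had 17 tested genes, of which 3 rose, 6 fell and 8 were not called (median 0.06, 10 of 17 above 0). The balance of directions turned with the scaling, with 6 higher and 5 lower for library size alone and 7 higher and 5 lower in both limma fits on FPKM, while none was called higher without control sample 3. Of the kinases, EIF2AK3 (PERK), which senses unfolded proteins, fell from 35.1 ± 2.76 to 25.8 ± 0.23 CPM (log2 fold change -0.44, edgeR adjusted p = 0.0015). EIF2AK2 (PKR), which senses viral RNA and is named here after its value was seen, fell from 193 ± 2.48 to 173 ± 10.6 CPM (-0.16, adjusted p = 0.0283), and EIF2AK1 (0.06) and EIF2AK4 (0.14) were not called. PPP1R15A (GADD34), a stress-induced subunit of the phosphatase that removes phosphate from eIF2alpha, went from 32.6 ± 0.97 to 20.2 ± 1.86 CPM (-0.69, adjusted p = 0.00034), and its constitutive counterpart PPP1R15B from 265 ± 1.99 to 210 ± 3.54 CPM (-0.34, adjusted p = 0.00013). DNAJC3, a chaperone that inhibits PERK, went from 121 ± 5.19 to 80.1 ± 3.71 CPM (-0.60, adjusted p = 6.1e-05). The 3 that rose were OMA1 (0.49), a mitochondrial protease that relays stress to eIF2alpha, GCN1 (0.15), an activator of the kinase GCN2, and EIF2B1 (0.14), a subunit of the exchange factor of eIF2, and each lost its call in 4 to 6 of the alternatives.

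Of 9 genes for the turnover of ATF4 protein, 2 rose, 3 fell and 4 were not called (median -0.12), and none met the criteria of the study. The median was -0.07 with library size alone. It depended on single libraries, from -0.05 without knockdown sample 3 and -0.07 without control sample 3 to -0.14 without knockdown sample 1. USP11, a deubiquitinase, rose (0.29, edgeR adjusted p = 0.0013), and the ubiquitin ligase genes FBXW11 (-0.20, adjusted p = 0.0029) and SIAH2 (-0.22, adjusted p = 0.0078) fell. EGLN3 (0.15) and EGLN2 (-0.18), prolyl hydroxylases, lost their calls in 11 and 8 of the alternatives. EP300, an acetyltransferase and the most abundant gene of the list, was at 150 CPM in control and 146 in knockdown (adjusted p = 0.575).

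Among 31 tested bZIP relatives and partners, 5 rose, 10 fell and 16 were not called (median -0.07). Scaling by library size alone gave 5 higher and 7 lower (median -0.01). CREB3L1, a membrane-bound factor of the endoplasmic reticulum, rose from 10.4 ± 0.41 to 21.3 ± 1.19 CPM (log2 fold change 1.04, edgeR adjusted p = 6.7e-05). JUN, an AP-1 subunit, rose from 37.2 ± 1.46 to 59.6 ± 1.79 CPM (0.68, adjusted p = 3.7e-05), and FOS rose too (0.45, adjusted p = 0.0059). Another AP-1 subunit went the other way, FOSL1, which fell from 54.1 ± 5.33 to 29.4 ± 1.62 CPM (-0.88, adjusted p = 8.1e-05). MAFF (-0.75, adjusted p = 0.00019), XBP1 (-0.49, adjusted p = 0.0002) and ATF2 (-0.32, adjusted p = 0.00056) also fell. FOSL2 (0.16) rose and NFE2L1 (-0.15), the most abundant of the list, fell by small amounts. FOSL2 lost its call in 3 alternatives and FOS in 1, and without control sample 1 and knockdown sample 3 the list had 2 genes called higher.

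The paralogs of the regulators were not called in either direction. CHAC2, a glutathione-degrading relative of CHAC1, was at 30.2 ± 2.91 CPM in control and 32.5 ± 2.36 in knockdown (adjusted p = 0.421). SESN1 (-0.04), SESN3 (-0.49), TRIB1 (-0.27) and TRIB2 (0.06) were not called, and SESN3 had 4 to 41 counts per sample. The fits do not show that these genes were alike in both groups.

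Of 52 tested ATF4 targets outside the 10 regulators, 3 rose, 15 fell and 34 were not called. With library size alone 8 were higher and 13 lower, and in both limma fits on FPKM, which tested 47, 5 and 11. The median log2 fold change of the 52 was -0.09 (-0.03 with library size alone), and 36 of 52 lay below 0, beside 8948 of 18390 over all tested genes. PHGDH, the first enzyme of serine synthesis, had CPM of 127, 130 and 125 in control and 55.6, 61.6 and 64.7 in knockdown (log2 fold change -1.07, edgeR adjusted p = 1.3e-05). ASNS, asparagine synthetase, had 50.3, 52.5 and 51.1 in control and 29.9, 26.6 and 29.3 in knockdown (-0.84, adjusted p = 3.2e-05). For each gene the knockdown samples lay far below the controls.

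SLC38A2, a transporter of small neutral amino acids, had CPM of 826, 832 and 919 in control and 552, 515 and 545 in knockdown (-0.68, edgeR adjusted p = 3.6e-05). HERPUD1, a gene of endoplasmic reticulum protein degradation, went from 88.0 ± 3.09 to 48.2 ± 1.65 CPM (-0.87, adjusted p = 1.3e-05). The 3 targets that rose were the tRNA synthetase genes EPRS1 (0.19, adjusted p = 0.0019) and AARS1 (0.18, adjusted p = 0.0043), and VLDLR (0.31, adjusted p = 0.042), a lipoprotein receptor that lost its call in 10 alternatives. SLC7A5, the most abundant target and a transporter of large neutral amino acids, was at 2445 CPM in control and 2520 in knockdown (adjusted p = 0.33).

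When the targets were grouped by function, after their values had been seen, 6 of 13 enzymes of amino acid and folate metabolism fell and none rose (median -0.16), and 3 of 9 amino acid transporters fell and none rose (median -0.02). Of 11 genes for tRNA charging and export, 2 rose and 2 fell (median 0.06). The groups are small and differ in how many genes were called, and the differences between them were not tested.

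The unfolded protein response has other arms besides PERK, run by ATF6 and XBP1. Of 20 of their genes, none rose, 9 fell and 11 were not called (median -0.12, or -0.07 with library size alone, and 17 of 20 below 0). HSPA5 (BiP), the main chaperone of the endoplasmic reticulum and the most abundant of the list, fell from 2521 ± 104 to 2097 ± 58.2 CPM (log2 fold change -0.27, edgeR adjusted p = 0.000675), and its co-chaperone DNAJB11 fell by 0.40 on the log2 scale (adjusted p = 0.00024). HERPUD1, DNAJC3 and XBP1, described above, are in this list as well.

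Several of the 10 regulators also answer to p53 or to low oxygen. Of 19 tested p53 targets, 3 rose and 4 fell (median -0.04). With library size alone 4 were higher and 4 lower (median 0.02), and in both limma fits on FPKM 5 were higher and 4 lower. XPC (0.51, edgeR adjusted p = 4.7e-05) and TP53I3 (0.45, adjusted p = 0.0009) rose, while the death receptor gene TNFRSF10B (-0.33, adjusted p = 0.00015), ZMAT3 (-0.46, adjusted p = 0.0012), AEN (-0.21) and MDM2 (-0.19), which encodes the ligase that degrades p53, fell. DDB2 rose by 0.22 but lost its call in 6 alternatives.

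Of 20 hypoxia-induced genes, 2 rose and 3 fell (median -0.04). The balance turned with library size alone, with 5 higher and 1 lower (median 0.01), and in the limma fit on log2(FPKM + 0.1), with 4 higher and 1 lower, whereas DESeq2 called 1 higher and 6 lower. P4HA2, a collagen prolyl hydroxylase, rose (0.27, edgeR adjusted p = 0.0028) and KDM3A, a histone demethylase, fell (-0.32, adjusted p = 0.0011). PDK1 (-0.20) and NDRG1 (-0.13) fell but lost their calls in 6 and 10 alternatives. ENO1, the most abundant of them, was not called (0.04). Of 16 genes for proteins that the regulators act on or with, such as TSC1, TSC2 and the GATOR2 subunits, WDR59 of GATOR2 rose (0.47, adjusted p = 0.0016) and the other 15 were not called (median 0.02). The most abundant of these was SEC13 (0.07).

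**Figure D5:**
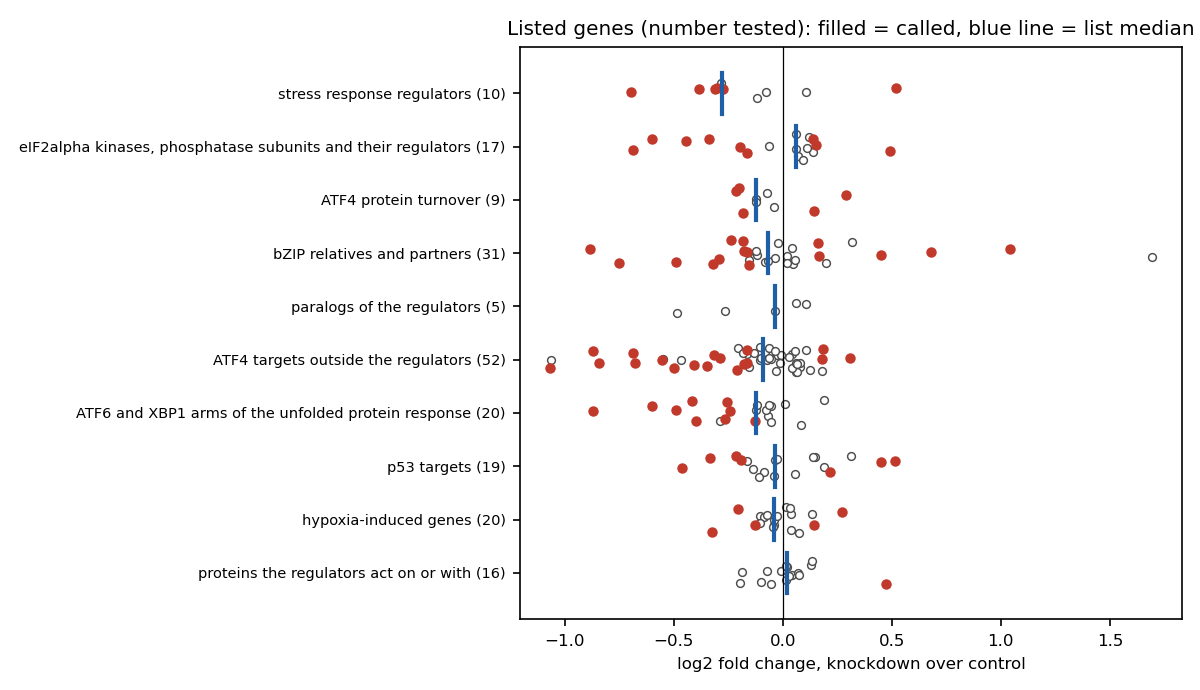
Log2 fold change, knockdown minus control (horizontal), of every tested gene of each list (rows, number of tested genes in brackets), with called genes filled and the median of each list as a blue line. The medians of the lists other than the cell-type markers lie between -0.12 and 0.06, apart from -0.28 for the regulators themselves. Single genes such as PHGDH (-1.07) and CREB3L1 (1.04) lie far from these medians, while the open point at 1.69 has an SE of 1.16.

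Markers of other cell types were counted beside these results. Of the 4 tested immune genes, CD68 (0.64, edgeR adjusted p = 0.00011) and CSF1R (0.49, adjusted p = 0.003) rose, and the summed CPM of the 5 in the table was 50.4, 51.2 and 48.2 in control and 73.3, 74.0 and 74.4 in knockdown, most of it CD68. PTPRC, which defines blood cells, had counts of 8, 8 and 0 in control and 0 in every knockdown sample. Of 5 tested fibroblast genes, COL1A1 (the most abundant) and PDGFRB rose. The other 3 were not called and lay below 0, and 1 of them was lower by the criteria of the study. The summed CPM of the 6 in the table was 88.9, 79.7 and 83.4 in control and 95.3, 97.1 and 95.2 in knockdown.

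Of 3 tested endothelial genes, CDH5, the most abundant, fell, with summed CPM of 13.8, 15.3 and 16.7 against 11.2, 12.7 and 13.1. Of 12 hepatocyte and HCC genes, APOB (-0.98, edgeR adjusted p = 0.0205) and SERPINA1 (-1.47, adjusted p = 0.00336) fell and none rose. Their median log2 fold change was -0.69, with 11 of 12 below 0, and it depended on single libraries, from -0.24 without knockdown sample 3 and -0.39 without control sample 3 to -1.07 without knockdown sample 2 and -1.08 without control sample 1. Without both control sample 1 and knockdown sample 3 it was -0.55, with 5 genes called lower. Their summed CPM, nearly all of it KRT8 and KRT18, was 2443, 2514 and 2641 in control and 2390, 2474 and 2512 in knockdown. The part of these genes in the results for ATF4 and the other regulators was not tested.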

How the data were processed

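RNA was extracted with Trizol and sequenced on the Illumina NovaSeq platform. Reads were aligned by the authors with HISAT2. The submitters' processing notes also name cutadapt 1.9, FastQC and the genome build GRCh38. The counting program, annotation release and use of strand are not given in the sources used here. The deposited table holds raw counts per gene and FPKM values, which the authors scaled to gene length and library size.

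Low genes were removed from the counts by filterByExpr, TMM factors were computed, and the groups were compared by the quasi-likelihood test (glmQLFit, then glmQLFTest) in edgeR 4.0.16 under R 4.3.3, with a term for the group only and Benjamini-Hochberg adjustment over 18390 genes. A gene was called at an adjusted p below 0.05. The SE of a log2 fold change was taken as its size over the root of the F statistic. CPM per sample use the TMM-scaled library sizes, and 1 count was worth 0.0143 to 0.0163 CPM, which limits precision only for the scarcest genes. Within groups, the chi-square value per gene was 12.8 or more, so no library was a repeat of another.

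The regulators and all lists were chosen with earlier results of these data known. Beside the regulators and ZNF706, the text names from each list up to 4 called genes per direction with the smallest adjusted p and the most abundant gene, every tested paralog, and the 5 genes nearest to ATF4. The markers, overlapping genes and genes with a motif match were named outside this rule, after their values were seen. Promoter windows came from RefSeq (GRCh38.p14). NUPR1 had no entry.

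Alternatives were DESeq2 1.42.0, its size factors in edgeR, library size alone, no filter, a minimum mean count of 50, the replicate number as a block, each sample left out, the criteria of the study, and limma 3.58.1 (trend) on log2(FPKM + 0.1) and log2(FPKM + 1) where the mean FPKM reached 1. Removing each library's GC trend, and leaving out control sample 1 with knockdown sample 3, were added after seeing the data.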

Additional observations from a re-analysis of the deposited data

How the results depend on the processing

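No log2 fold change of the 10 regulators changed sign in any of the 16 alternatives other than the criteria of the study, which use the same fit and which SESN2 of the regulators called lower did not meet. ATF4 and DDIT4 kept their calls in each, and ATF3 was called in none. Calls were lost for ATF5 in 7, CHAC1 in 6, NUPR1 in 5 and SESN2 in 2 settings, and gained for CEBPB in 3, DDIT3 in 2 and TRIB3 in 1. The cause was not tested. Over the whole table, 1081 genes were lower by the criteria of the study and 1518 with library size alone, while 1253 were higher with no filter and 1189 without control sample 1 and knockdown sample 3. With no filter, 2 regulators were called lower. Of the ATF4 targets, 1 was higher by the criteria of the study, 8 with library size alone, and 5 in each limma fit on FPKM. Of all called genes, 62% were higher by the criteria of the study and 59.7% in the limma fits. Leaving out 1 sample at a time, where fewer samples were tested, left 1148 to 1485 genes higher and 1500 to 1939 lower, both lowest without knockdown sample 2. It left 1 to 4 regulators lower (1 without knockdown sample 1, 2 without control sample 3) and 1 higher, and 2 to 3 ATF4 targets higher and 12 to 15 lower. Samples of the same replicate number did not deviate together (correlations 0.03, -0.04 and -0.02). With 3 samples per group this does not settle whether the numbers pair the samples. With the replicate block 1967 genes were higher and 2394 lower, and 1 regulator was higher and 5 lower, as without it. CHAC1 had the fewest counts of the regulators, 124 to 246 per sample.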
